A study of Mus musculus with 244 samples.

Results

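A pair of stretches of regression macrophages, titled with the numbers 1 to 20 and 168 to 244, were compared across all genes. Both carry the same label, so the comparison shows how far cells of 1 condition differed from each other. Cells were assigned to a stretch by title number alone, but the stretches to compare were chosen with earlier results of these data known. Cells that listed at least 1000 genes at RPKM (reads per kilobase of transcript, scaled to library size) of 1 or more were kept. This left 20 of 20 libraries in the stretch 1-20 and 75 of 77 in the stretch 168-244, together 95 of the 238 cells kept from 244 libraries in the series. The labels name no animal, capture run or culture for either stretch. Each stretch is therefore 1 sample, cells are not replicates, and no p-value or standard error is given.

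The study set macrophages of advanced atherosclerotic plaque against macrophages of plaque taken shortly after regression was started. Both stretches come from the regression arm: aortic arches of Apoe-/- donors, fed high fat for 16 weeks, were transplanted into wild-type recipients on chow, and the mice were killed 3 days later. The arches were digested with enzymes, and cells positive for CD45, CD11b and F4/80 were sorted, captured singly on a Fluidigm C1 chip, amplified with the SMARTer Ultra Low kit and made into libraries with Nextera XT. The baseline arm, stretches 21-92 and 112-167, holds arch macrophages of Apoe-/- mice on the same diet without transplant, and a further regression stretch, 93-111, stands between them. The labels give neither sex nor exact age, nor whether cells of several arches were pooled. A cell in a transplanted arch can stem from the donor or from the recipient, and the sort does not separate these.

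Plaque macrophages arise largely from blood monocytes that enter the vessel wall, take up lipoproteins and differentiate. Newly recruited or activated macrophages are known for interleukin 1 beta, chemokines and immediate early transcription factors, which are induced within minutes to hours of a signal. Mature tissue macrophages are known for complement C1q, scavenger and lectin receptors, and, when loaded with lipid, for Trem2, Spp1 and Cd63.

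Library measures of the stretches overlapped. The median number of genes per cell was higher in 1-20, as was that of reads in the libraries where depth could be estimated. Cells 1-20 listed a median of 2669 genes (1142 to 4119), and all 77 libraries of 168-244 a median of 2386 (832 to 4107). Read depth could be estimated for 9 and 43 libraries, with medians of 1.23 M (0.857 to 1.93) and 0.760 M reads (0.390 to 3.76). The median share of RPKM in ribosomal protein genes was 13.2% and 13.3%, and that in mitochondrial genes 8.46% and 8.47%. The correlation of log2 values had a median of 0.397 between cells of 1-20, 0.398 between cells of 168-244 and 0.384 across the stretches. No pair of the compared cells reached 0.9, the level at which libraries were treated as copies. Because more genes were listed in cells 1-20, differences in mean level were also computed against matched cells, as were the counts and list medians drawn from them. Matched cells are the 40 cells of 168-244 with the nearest gene numbers (median 2699 genes). Shares of cells that listed a gene or a set of markers were not computed against them. Whether depth has a part in the differences was not otherwise tested.

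Both stretches carried the macrophage label in their markers. At least 3 of 7 macrophage markers (Adgre1, Cd68, Csf1r, Fcgr1, Mertk, C1qa and Lyz2) were listed in 19 of 20 cells 1-20 (95.0%, exact 95% binomial interval 75.1 to 99.9%) and in 75 of 75 cells 168-244 (95.2 to 100.0%). These intervals, and those below, cover counting error only. At least 3 of 6 classical monocyte markers were listed in 6 of 20 (30.0%, 11.9 to 54.3%) and 24 of 75 cells (32.0%, 21.7 to 43.8%). Nonclassical monocyte markers, Nr4a1 among them, reached 3 in 1 of 20 and 5 of 75 cells. Neutrophil markers did so in 0 of 20 cells, a count that allows up to 15.0%, and in 9 of 75 (12.0%, 5.64 to 21.6%). Of the 9 neutrophil markers Retnlg, Ly6g, Camp and Ngp were at 0 in all cells of both stretches, and the summed RPKM of the list ran on the log2 scale from 0 over 3.19 to 9.76 in cells 1-20 and from 0 over 3.91 to 14.87 in cells 168-244. The part of such cells in the differences was not tested. No cell of either stretch had 3 markers of dendritic cells, T, B, NK or mast cells, smooth muscle, fibroblasts, endothelium, red cells, platelets, adipocytes or islets. The protocol text speaks of islet cells where every other label says macrophages. In cells 1-20 the islet genes Ins1, Gcg, Iapp and Sst were at 0. No cell of the compared stretches had more than a log2 value of 2.31 in all 5 islet genes summed. In cells 93-111 this sum reached 4.84, and 2 of 18 cells had at least 3 islet markers.

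Of 24475 genes, 4649 were listed (at RPKM 1 or more) by 25% or more of the cells in either stretch. For each, the difference is the mean log2(RPKM + 1) of cells 1-20 minus that of cells 168-244. A difference of 2 or more, that is 4-fold on this scale, was used as the size worth counting. It was reached by 100 genes higher in cells 1-20 (2.15% of those tested) and 55 genes higher in cells 168-244 (1.18%), together 155 (3.33%). The median difference of all genes was 0.21, and 2816 genes were positive and 1833 negative. The balance of the directions depended on the summary: as log2 ratios of mean RPKM, which a few very high cells can set, 195 genes were higher in cells 1-20 and 323 in cells 168-244. Of the 100 and 55 genes, 25 and 23 were also past 2 as such ratios. Against matched cells the numbers were 96 and 67, with 75 and 48 of the same genes, and against the 44 cells of 168-244 that listed at least 2282 genes, the lower quartile of cells 1-20, they were 49 and 141. The genes nearest to the limit had differences of 2.01 and 1.99 on the high side and -2.002 and -1.996 on the low side.

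**Figure D1:**
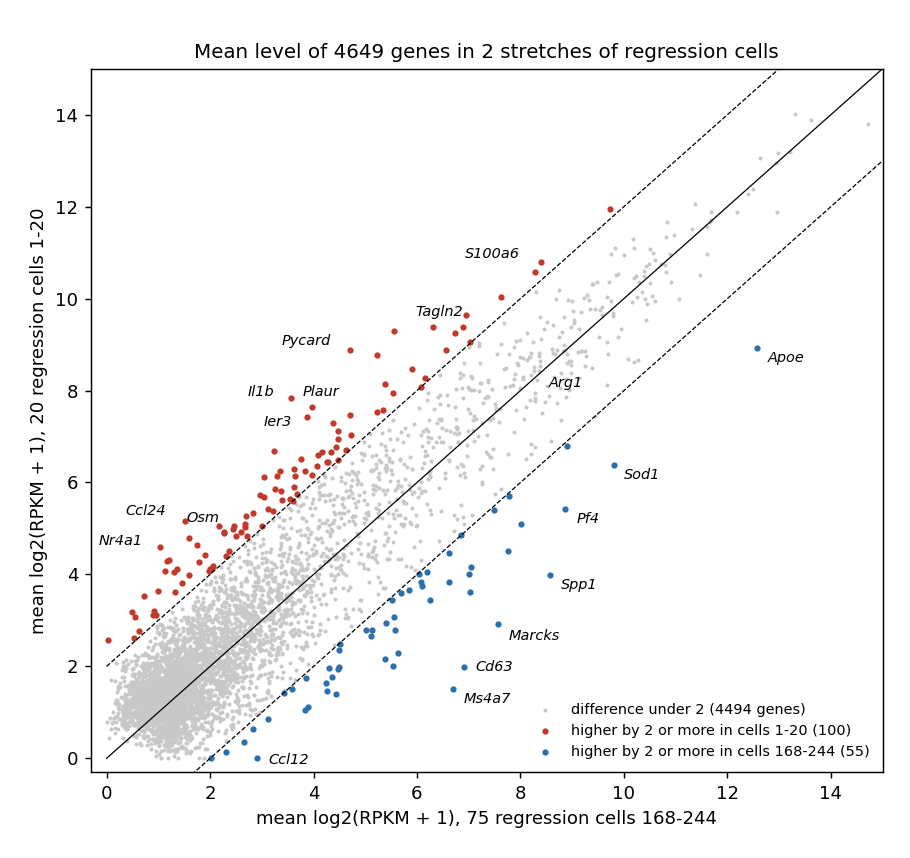
Mean log2(RPKM + 1) of 4649 genes in the 20 cells 1-20 (y axis) against the 75 cells 168-244 (x axis); the solid line marks equal means and the dashed lines a difference of 2. Il1b, Pycard and Plaur lie above the band, Ms4a7, Cd63, Marcks, Spp1 and Apoe below it, and Arg1 lies on the line of equal means.

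The 15 genes with the highest differences were Il1b, Pycard, Rps27rt, Plaur, Ccl24, Ier3, Nr4a1, Selk, Atp6v0c, Tppp3, Crem, Cd24a, Ifitm6, Tagln2 and Nr4a2, from 4.27 down to 2.93. The 15 with the lowest were Ms4a7, Cd63, Marcks, Spp1, Apoe, Cdkn1b, Pf4, Sod1, Ms4a6c, Cxcl16, Sdc4, Clec4a2, Fcrls, Rpl34-ps1 and Ccl12, from -5.18 to -2.92. All 30 stayed past 2 when any single cell was left out and when matched cells were used. The genes were picked as the extremes of these same cells, so this is no check of their differences. Rps27rt, Rpl34-ps1 and Atp6v0c have near-identical copies in the genome, so their reads may have been split, and their values are uncertain.

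Interleukin 1 beta led the genes higher in cells 1-20. Il1b (gene 16176, chr2:129364569-129371164, minus strand, RefSeq on GRCm38.p6) encodes a cytokine that inflammasomes activate by cleavage. Over cells 1-20 its log2(RPKM + 1) ran from 0 over a median of 9.07 to 11.69, and over cells 168-244 from 0 over 1.81 to 12.13. The ranges overlapped, but RPKM of 100 or more was reached in 15 of 20 cells against 20 of 75. The means were 7.84 ± 3.67 and 3.57 ± 3.78 (SD over cells), a difference of 4.27, and 4.53 against matched cells. Among cells that listed the gene the difference was 3.51, so both the share of cells and the level in them were higher. As a log2 ratio of mean RPKM it was 1.66, under the size counted, and cells with very high Il1b were present in both stretches.

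Pycard encodes ASC, the adaptor that joins inflammasome sensors to caspase 1 (gene on chr7:127991373-127993867). It was listed in 20 of 20 cells 1-20, with a lowest value of 3.28, a median of 9.55 and a highest of 12.75, and in 53 of 75 cells 168-244, from 0 over 4.69 to 11.07. The means were 8.88 ± 2.42 and 4.70 ± 3.78. Nlrp3, a sensor that uses this adaptor, differed by 0.72 and was listed in 50.0% and 30.7% of cells.

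Il6 and Osm, cytokines that signal through the shared receptor chain gp130, were also past 2. Il6 was listed in 7 of 20 cells 1-20 (35.0%, 15.4 to 59.2%) and in 1 of 75 cells 168-244 (1.33%, 0.0338 to 7.21%), with highest values of 10.62 and 2.60. Its difference of 2.53 was 1.89 without the 3 cells of 1-20 lowest in Apoe, which are described below. Osm was at 4.98 ± 2.98 and 2.45 ± 3.10 and listed in 17 of 20 and 36 of 75 cells. Not every inflammatory gene lay on this side. Tnf was listed in 2 of 20 and 17 of 75 cells, and Nfkbia and Tnfaip3, targets and brakes of NF-kappa B, differed by -0.21 and -0.27. Of 6 inflammatory cytokine genes tested of 13 in the list, 3 were past 2 higher in cells 1-20 and 0 lower, with a median of 1.62. That median rests on few genes: it was 0.65 against matched cells, and 0.49 when genes listed in 10% of cells were let in. The filter also shaped the list: Il6 passed it through cells 1-20 alone, where it was high, and Tnf was under it in both stretches. The share of tested cytokine genes past 2 therefore depends on the filter. With genes listed in 10% of cells let in, the counts over all genes stayed 100 higher in cells 1-20 and 55 higher in cells 168-244.

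Immediate early genes, whose transcripts appear without new protein synthesis, were put in 1 list with heat shock genes. This list gave the most genes past 2. Of 19 tested, 5 were past 2 higher in cells 1-20 (Ier3, Nr4a1, Btg2, Klf4 and Egr1) and 0 lower, and the list median was 0.94 against 0.21 for all genes. Nr4a1, an orphan nuclear receptor, was listed in 16 of 20 cells (80.0%, 56.3 to 94.3%) and 18 of 75 (24.0%, 14.9 to 35.3%), and its means were 4.60 ± 2.58 and 1.03 ± 1.94. Nr4a2, its relative, was listed in 15 of 20 and 14 of 75 cells, with means of 4.07 ± 3.24 and 1.14 ± 2.51. These were the largest differences in share among all genes tested, 56.0 and 56.3 percentage points. Both genes passed the filter through cells 1-20 alone, the stretch where they were high. Without a filter on low values the median of the immediate early and heat shock list was 0.85. The counts over all genes past 2 then stayed 100 higher in cells 1-20 and 55 higher in cells 168-244. Where Nr4a2 was listed, its level was no higher in cells 1-20 (difference -0.53), so its difference lay in the number of cells.

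Ier3, an early response gene that acts on survival, was at 7.43 ± 3.32 and 3.86 ± 3.37, and reached RPKM 100 in 17 of 20 and 19 of 75 cells. Klf4, a zinc finger factor of monocyte differentiation, was at 5.82 ± 2.96 and 3.38 ± 3.33, and Klf2 stood just under the limit at a difference of 1.98. Crem, a factor whose short forms repress cyclic AMP response genes, was listed in 12 of 20 and 15 of 75 cells and differed by 3.12. Rgs2, a brake on G protein signalling, was at 7.47 ± 2.89 and 4.71 ± 3.64. The AP-1 genes did not share this difference: Fos differed by 0.81, Junb by -0.09 and Jun by -0.63. Ier2 and Zfp36 were lower by 1.09 and 0.92, and Hspa1a and Hspa1b, heat shock genes that rise when cells are stressed, were under the filter in both stretches. Btg2 and Egr1 were not high against the whole series, since their means in cells 1-20 (6.15 and 3.82) lay under those of baseline cells 21-92 (7.70 and 4.15).

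A set of 4 of these genes have the core TGACG of the cyclic AMP response element, to which CREB and CREM proteins are known to bind, in the 250 bases before their RefSeq start site (GRCm38.p6). Their sequences are shown because the genes lay on the same side of the comparison and hold more than 1 copy, read 5′ to 3′ on the gene's strand, with TGACG or its complement CGTCA in capitals. The Nr4a1 window, chr15:101266596-101266845 (plus strand), lies inside the gene's span, since longer transcripts start upstream.
Nr4a1: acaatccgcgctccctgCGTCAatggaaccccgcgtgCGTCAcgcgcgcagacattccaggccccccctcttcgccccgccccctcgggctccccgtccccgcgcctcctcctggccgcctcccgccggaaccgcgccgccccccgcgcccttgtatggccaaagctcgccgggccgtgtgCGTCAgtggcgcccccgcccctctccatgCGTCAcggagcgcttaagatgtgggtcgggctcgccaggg
Nr4a2: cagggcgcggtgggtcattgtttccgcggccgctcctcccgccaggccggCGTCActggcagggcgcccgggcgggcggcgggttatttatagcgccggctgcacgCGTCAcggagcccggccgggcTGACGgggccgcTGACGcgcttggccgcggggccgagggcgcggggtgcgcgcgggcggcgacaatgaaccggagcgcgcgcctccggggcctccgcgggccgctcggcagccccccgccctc
Btg2: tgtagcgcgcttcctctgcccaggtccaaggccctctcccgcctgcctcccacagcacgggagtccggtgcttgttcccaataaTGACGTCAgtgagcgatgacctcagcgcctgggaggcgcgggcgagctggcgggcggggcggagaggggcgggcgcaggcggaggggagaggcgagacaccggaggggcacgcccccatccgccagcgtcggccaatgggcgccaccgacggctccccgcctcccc
Rgs2: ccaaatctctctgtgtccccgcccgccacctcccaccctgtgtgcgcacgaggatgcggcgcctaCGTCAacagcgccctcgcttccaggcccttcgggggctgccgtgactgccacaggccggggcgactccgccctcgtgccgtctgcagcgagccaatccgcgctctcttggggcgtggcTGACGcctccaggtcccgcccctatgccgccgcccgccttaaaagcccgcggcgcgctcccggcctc
The Nr4a2 window is chr2:57124004-57124253, that of Btg2 chr1:134079156-134079405 and that of Rgs2 chr1:144004150-144004399, all on the minus strand. For Nr4a1, Nr4a2 and Rgs2 the bases just after the start were found near the opening of an annotated transcript. This was not so for Btg2 and Klf4, and their start sites are less certain. Nr4a1 and Nr4a2 hold 4 copies each, Btg2 holds 2 that overlap as the palindrome TGACGTCA, and Rgs2 holds 2. Klf4, Klf2, Il6 and Fosb hold 1 each, and Ier3 holds 0. The motif was common, and no more frequent among the genes past 2 than among all genes tested. It was found in 17.8% of all 32851 windows, in 33.6% of the 3749 tested genes with a window, in 24 of 81 genes past 2 higher in cells 1-20 (29.6%) and in 11 of 45 past 2 higher in cells 168-244 (24.4%). In the immediate early and heat shock list it was found in 10 of 15 tested genes with a window. Motif and genes were chosen after their values were seen, and a match describes letters, not binding.

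**Figure D2:**
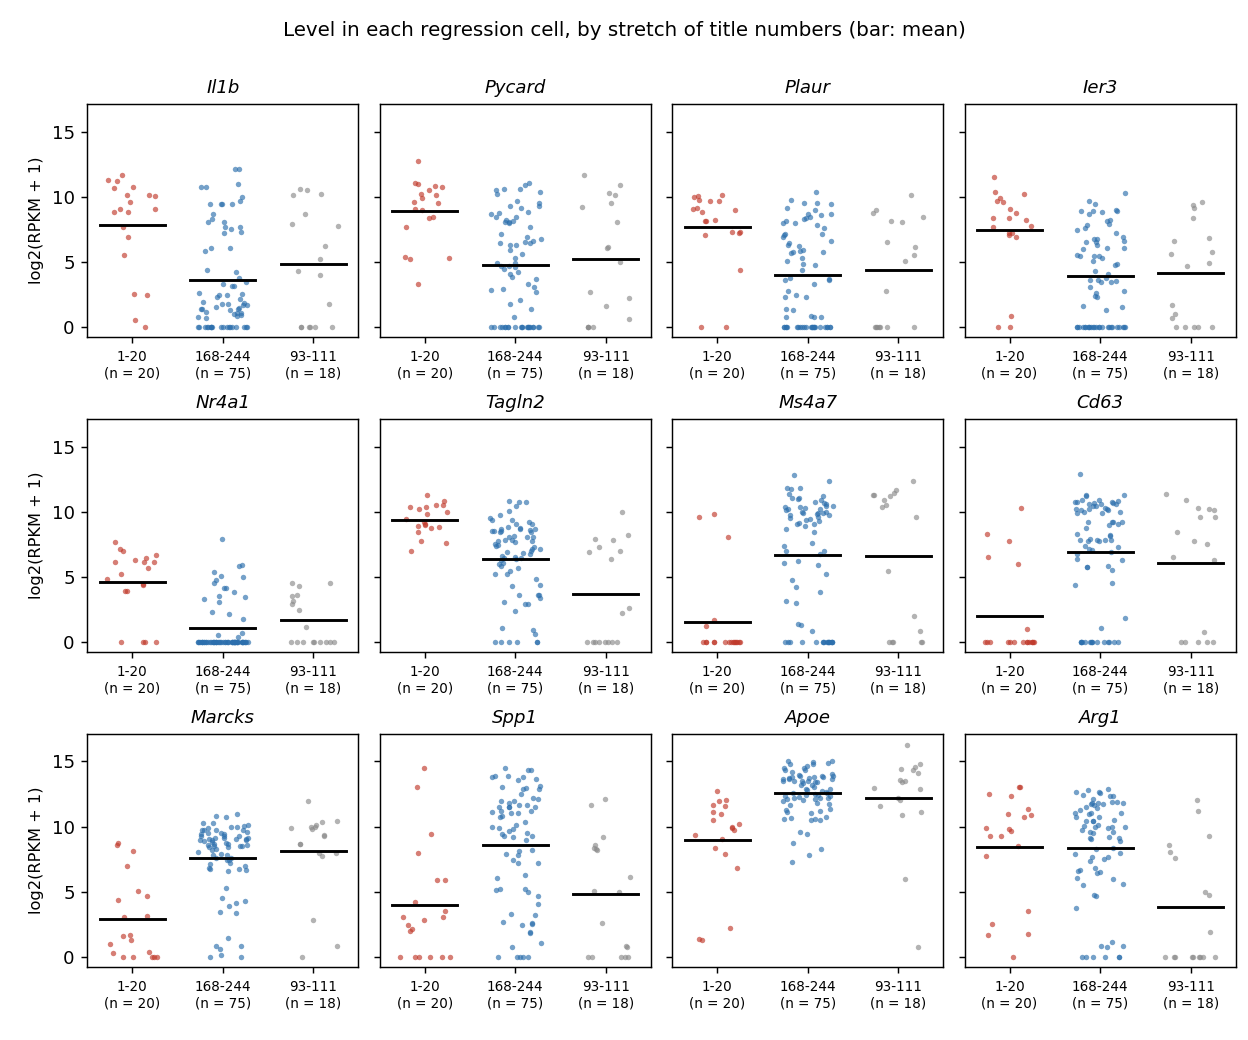
log2(RPKM + 1) of 12 genes in each cell of the 3 regression stretches (20, 75 and 18 cells); points are cells and bars are means. Most cells 1-20 lie high for Il1b, Pycard, Plaur, Ier3 and Nr4a1 and at or near 0 for Ms4a7 and Cd63, while Arg1 has the same mean in cells 1-20 and 168-244.

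Several genes past 2 higher in cells 1-20 act in adhesion and the actin cortex, though the list that covers these did not stand apart. Plaur, the urokinase receptor, was at 7.64 ± 2.96 and 3.96 ± 3.57 and reached RPKM 100 in 17 of 20 and 22 of 75 cells. Tagln2, which binds actin, was listed in every cell 1-20, from 6.95 over 9.30 to 11.28, and in 67 of 75 cells 168-244, from 0 over 7.11 to 10.77, a difference of 3.06. Tmsb10, which holds actin monomers, differed by 2.55 and was the 1 gene past 2 of 20 tested in the actin and integrin list, in which 15 genes were positive and 5 negative (median 0.68). Cd44, the hyaluronan receptor, was at 8.08 ± 2.09 and 6.07 ± 2.68. Tagln2, Tmsb10 and S100a6 thus had low spread in cells 1-20, with no cell at 0.

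The S100a genes, small calcium-binding proteins most of which lie in a cluster on chromosome 3, stood out as a family, which was picked after its values were seen. Of 8 tested, 5 were past 2 higher in cells 1-20 and 0 lower, with a median of 2.36. As log2 ratios of mean RPKM none of the 5 was past 2, from 0.67 for S100a10 to 1.30 for S100a11, and the family median was 0.70. S100a1 was also within 2, at 1.98, without the 3 cells lowest in Apoe. S100a6 was the most even: its lowest, median and highest values were 9.36, 10.89 and 11.70 in cells 1-20 and 0, 9.51 and 12.43 in cells 168-244. S100a4 was at 9.24 ± 2.46 and 6.73 ± 3.73, S100a11 at 10.02 ± 1.26 and 7.62 ± 3.15, S100a10 at 8.89 ± 1.55 and 6.57 ± 3.35, and S100a1 at 6.95 ± 3.38 and 4.48 ± 3.88. The neutrophil alarmins S100a8 and S100a9 differed by 0.72 and -0.26, and the sign of each changed under at least 1 other setting. Annexins A1 and A2, which bind membranes in the presence of calcium and, for A2, S100a10, were at 8.13 ± 2.98 and 5.38 ± 3.75 (Anxa1) and at 9.64 ± 1.16 and 6.95 ± 3.71 (Anxa2). The other 6 annexins tested were within 2, and the family median was 0.75.

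Other genes past 2 in this direction had varied roles. Selk, an endoplasmic reticulum selenoprotein, was listed in 20 of 20 and 54 of 75 cells, and its means were 8.77 ± 1.59 and 5.22 ± 3.88. H2-DMa, which loads peptides onto MHC class II molecules, was at 5.69 ± 4.36 and 3.04 ± 3.52. Ltc4s, the enzyme that makes leukotriene C4, and Ptgs1, the constitutive cyclooxygenase, each differed by 2.65. Of 17 tested subunits of the 20S proteasome, the protease core that degrades ubiquitinated proteins, 4 were past 2 higher (Psma2, Psma6, Psma7 and Psmb1), with a median of 0.78 that was 0.40 against matched cells.

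Chemokine genes divided. Ccl24, which draws eosinophils, was listed in 12 of 20 (60.0%, 36.1 to 80.9%) and 17 of 75 cells (22.7%, 13.8 to 33.8%) and differed by 3.66. Pf4, Cxcl16 and Ccl12 lay on the other side. Ccl12, a ligand of Ccr2, was at 0 in all 20 cells 1-20, a count that allows up to 15.0%, and was listed in 26 of 75 cells 168-244 (34.7%, 24.0 to 46.5%). Cxcl16, a transmembrane chemokine that also takes up oxidised lipoprotein, was listed in 7 of 20 and 61 of 75 cells, with means of 2.29 ± 3.38 and 5.63 ± 3.43. Of 15 chemokines tested, 1 was past 2 higher in cells 1-20 and 3 lower, with a median of -0.19. Ccl6 and Ccl9, abundant in both, differed by 0.83 and 0.99, and the receptor gene Ccr2 by -0.13.

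On the low side, the Ms4a genes led. These encode membrane proteins that cross the bilayer several times and lie in a cluster on chromosome 19. The family was picked after its values were seen: of 6 tested members, 5 were past 2 lower in cells 1-20 and 0 higher, with a median of -2.84. As log2 ratios of mean RPKM the median was -1.64, and Ms4a7 and Ms4a6b stayed past 2 while Ms4a6c, Ms4a6d and Ms4a4a did not, at -1.68, -1.39 and -1.60. Ms4a7 (gene on chr19:11321039-11336146), a marker of mature macrophages, was listed in 5 of 20 cells 1-20 (25.0%, 8.66 to 49.1%) and 57 of 75 cells 168-244 (76.0%, 64.7 to 85.1%). Its median was 0 in cells 1-20 and 9.01 in cells 168-244, the highest values were 9.82 and 12.79, and the difference of -5.18 was the lowest of all genes. Ms4a6c was at 3.63 ± 3.82 and 7.03 ± 2.97, Ms4a6d at 4.16 ± 3.94 and 7.04 ± 3.53, Ms4a6b at 1.46 ± 2.62 and 4.26 ± 3.88, and Ms4a4a at 1.97 ± 3.64 and 4.30 ± 4.27. Ms4a8a was the exception, at 3.50 and 1.86. Family members share sequence, and the sources used here do not say how reads between them were assigned.

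**Figure D3:**
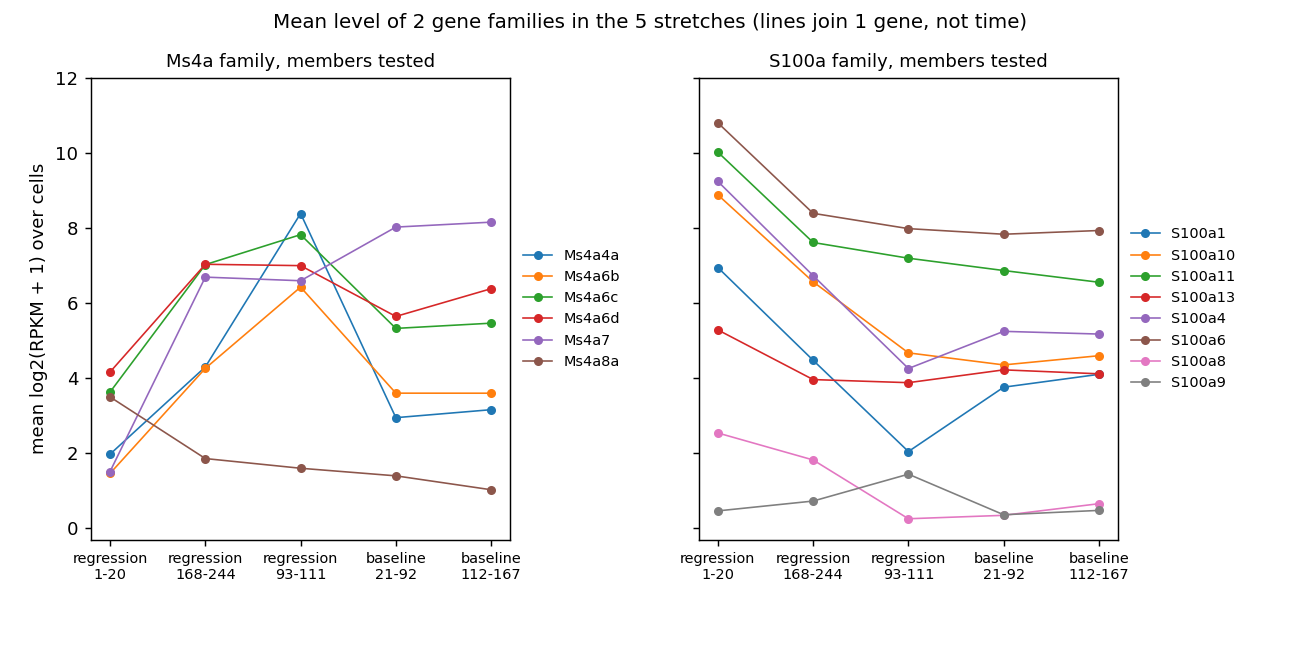
Mean log2(RPKM + 1) of the 6 tested Ms4a genes and the 8 tested S100a genes in the 5 stretches; lines join the values of 1 gene and stand for no order in time. Ms4a7, Ms4a6b, Ms4a6c, Ms4a6d and Ms4a4a are lowest in cells 1-20, where S100a1, S100a4, S100a6, S100a10, S100a11 and S100a13 are highest.

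Genes of lipid-laden macrophages differed unevenly. Cd63, a tetraspanin of late endosomes, was listed in 5 of 20 (25.0%, 8.66 to 49.1%) and 60 of 75 cells (80.0%, 69.2 to 88.4%), with means of 1.99 ± 3.51 and 6.91 ± 4.06. Spp1, the secreted matrix protein osteopontin, ran from 0 over 2.92 to 14.48 in cells 1-20 and from 0 over 9.81 to 14.46 in cells 168-244, and RPKM of 100 or more was reached in 4 of 20 and 52 of 75 cells. The highest cells of the stretches were alike for Spp1, and its log2 ratio of mean RPKM was -1.10 where the difference of mean logs was -4.58. Trem2, a lipid-sensing receptor, was at 2.79 ± 3.38 and 5.57 ± 3.67. The other 7 tested members of the list were within 2 and of either sign: Fabp5 differed by -1.96, Lgals3 by -0.44, Cd9 by 0.12, Plin2 by 0.70, Cd36 by 1.00, Lpl by 1.11 and Msr1 by 1.42. Of 10 tested, 3 were past 2 lower in cells 1-20 and 0 higher, and the list median was -0.16.

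Apoe (gene on chr7:19696244-19701310), which donors lacked and recipients carried, was listed in all 95 cells. It ran from 1.30 over 9.93 to 12.75 in cells 1-20 and from 7.29 over 12.77 to 15.02 in cells 168-244. The means were 8.93 ± 3.48 and 12.57 ± 1.72, a difference of -3.64. The lowest values belonged to 3 cells of 1-20, at 1.30, 1.37 and 2.20, and the next cell stood at 6.81. Values under 2.5 were otherwise found in 0 of 75 cells 168-244 and 1 of 18 cells 93-111. In the baseline stretches 21-92 and 112-167, from Apoe-/- mice, they were found in 67 of 69 and 52 of 56 cells. Whether the 3 cells of 1-20 stem from the donor was not tested. Without these 3 cells Apoe differed by -2.35, and 101 and 56 genes were past 2, among them 80 of the 100 and 45 of the 55. In the same 3 cells, in that order, Arg1 was at 7.71, 13.04 and 10.88, Saa3 at 0, 3.39 and 14.31, Hilpda at 0, 6.66 and 8.79, and Thbs1 at 9.22, 7.16 and 9.99, against baseline means of 0.06 and 0.11 for Arg1 and 0.74 and 0.71 for Thbs1. Abca1, which exports cholesterol to apolipoproteins, was at 2.47 ± 2.39 and 4.39 ± 2.85. Abcg1 differed by -0.09, and of 10 efflux and lipoprotein genes tested only Apoe was past 2.

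Some genes of resident macrophages were lower in cells 1-20 than in cells 168-244. Of 9 resident macrophage genes tested, 3 were past 2 lower (Pf4, Adgre1 and Maf) and 0 higher, and the list median was -1.29. The median of the gene means was 4.65 in cells 1-20, 4.61 in cells 93-111 and 5.68 in cells 168-244. In baseline cells 21-92 and 112-167 it was 5.18 and 4.74, so by this measure cells 168-244 were the highest stretch. Without the 3 cells of lowest Apoe, Adgre1 and Maf were within 2, at -1.71 and -1.75. Adgre1, which encodes the F4/80 antigen used in the sort, was at 3.59 ± 3.10 and 5.68 ± 3.09 and listed in 13 of 20 and 64 of 75 cells. Maf, a transcription factor of mature macrophages, was at 5.41 ± 3.37 and 7.49 ± 3.36. Pf4, a chemokine of platelets that some macrophages also express, was at 5.43 ± 5.41 and 8.87 ± 4.51, while of the other 4 platelet genes Itga2b and Gp9 were at 0 in both stretches, Ppbp was listed in 5.00% and 13.3% of cells and Gp1bb in 0% and 1.33%. The summed platelet list, Pf4 included, had log2 medians of 4.30 and 10.82, and the part of platelet RNA in the difference was not tested. Mrc1 differed by -0.41, and Folr2 was higher in cells 1-20 by 1.33.

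The 3 chains of complement C1q, which tags dying cells for uptake, lay on the same side. C1qa was at 5.70 ± 4.00 and 7.77 ± 2.97, C1qb at 8.67 ± 4.39 and 10.27 ± 2.54, and C1qc at 6.79 ± 3.69 and 8.89 ± 2.32. C1qb was listed in 18 of 20 and 73 of 75 cells with medians of 10.91 and 10.98, so for C1qb the typical cell was alike and the difference of -1.60 lay in a few low cells. Of 8 tested genes of this list, 2 were past 2 lower (C1qa and C1qc) and 0 higher, with a median of -1.37. Both genes were within 2 without the 3 cells of lowest Apoe, at -1.06 and -1.25, and as log2 ratios of mean RPKM, at -0.94 each. Among C-type lectin receptors, Clec4a2 and Clec4a3, neighbours on chromosome 6, were past 2 lower of 11 tested (list median -0.71). Clec4a2 was listed in 6 of 20 and 55 of 75 cells.

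The remaining genes of the 15 lowest belong to no list. Marcks, a substrate of protein kinase C at the membrane, was at 2.93 ± 3.11 and 7.56 ± 2.83, and RPKM of 100 or more was reached in 4 of 20 and 60 of 75 cells. Cdkn1b, the cell cycle inhibitor p27, was at 2.00 ± 2.11 and 5.54 ± 2.87, and its highest cell in 1-20 stood at 5.75 against 10.03. Sod1, the cytosolic superoxide dismutase, was at 6.38 ± 4.32 and 9.80 ± 2.72. Sdc4, a heparan sulfate proteoglycan, was at 4.50 ± 4.73 and 7.75 ± 3.81, and as a log2 ratio of mean RPKM it differed by only -0.65. Fcrls, a scavenger-like Fc receptor homologue, was listed in 4 of 20 and 40 of 75 cells.

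Arg1, which cleaves arginine and was far higher in the regression arm than at baseline, differed little between the stretches. It was at 8.42 ± 4.16 and 8.37 ± 3.85, a difference of 0.05 that ran from -1.30 to 0.32 over the other settings. Thbs1 and Fn1, which encode thrombospondin 1 and fibronectin, were higher in cells 1-20 by 1.78 and 1.11, within the size counted. Saa3, an acute phase protein, was listed in 8 of 20 and 43 of 75 cells and differed by -2.35, but by -1.16 against matched cells. Cd74, the MHC class II invariant chain, was at 7.15 ± 5.99 and 6.55 ± 5.00. The sort antigens Itgam (CD11b) and Ptprc (CD45) differed by 1.27 and 0.31, and the macrophage genes Cd68, Csf1r and Lyz2 by -0.08, -0.66 and 0.72. Over the 6 tested of the 7 macrophage markers the median was -0.89, with 1 positive and 5 negative. Adgre1 and C1qa were the 2 past 2 lower in cells 1-20, and 0 were past 2 higher. Xist was listed in no cell, and the Y-linked gene Ddx3y in 15 of 20 and 45 of 75 cells.

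Among the lists, the highest median was that of inflammatory cytokines (1.62) and the lowest that of apoptotic cell uptake and C1q (-1.37). Neither rank held under every setting: against matched cells MHC class II genes had 1.01 and inflammatory cytokines 0.65, and without a filter on low values resident macrophage genes had -0.80 and apoptotic cell uptake -0.63. No gene was past 2 in either direction among 19 lysosomal, 15 endoplasmic reticulum stress, 20 nuclear respiratory chain, 11 chemoattractant receptor, 7 interferon response and 13 mitochondrial protein genes tested. Their medians were -0.31, 0.46, 0.47, -0.49, 0.41 and 0.06, beside 0.21 for all genes, and all but the lysosomal one changed sign under at least 1 other setting. Ribosomal protein genes had a median of 0.14, with 1 of 80 past 2, and glycolysis and hypoxia genes 0.58, with 1 of 20. That gene, Eno1, differed by 2.01 and by 0.88 against matched cells. Of all 4649 genes tested 3.33% were past 2 in either direction. Beside that share, a count of 0 or 1 in lists of these sizes says little about their members.

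A few genes near the limit complete the list of differences. Hexa and Lgmn, lysosomal enzymes that cleave glycolipids and proteins, were lower in cells 1-20 by 1.87 and 1.76, and Hmox1, which breaks down heme, by 1.57. Fth1, the ferritin heavy chain, differed by -1.07. Aif1, the calcium-binding protein also called Iba1, and Pla2g7, the phospholipase of lipoproteins, were past the limit at -2.46 and -2.24. On the high side, 3 of 15 tested subunits of the V-ATPase proton pump were past 2, Atp6v0c among them, with a median of 0.77. Trem1, a receptor that amplifies inflammation, and Cd14, the coreceptor for endotoxin, differed by 1.92 and 1.83, and Rac2, a GTPase that activates the phagocyte oxidase, by 1.96.

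**Figure D4:**
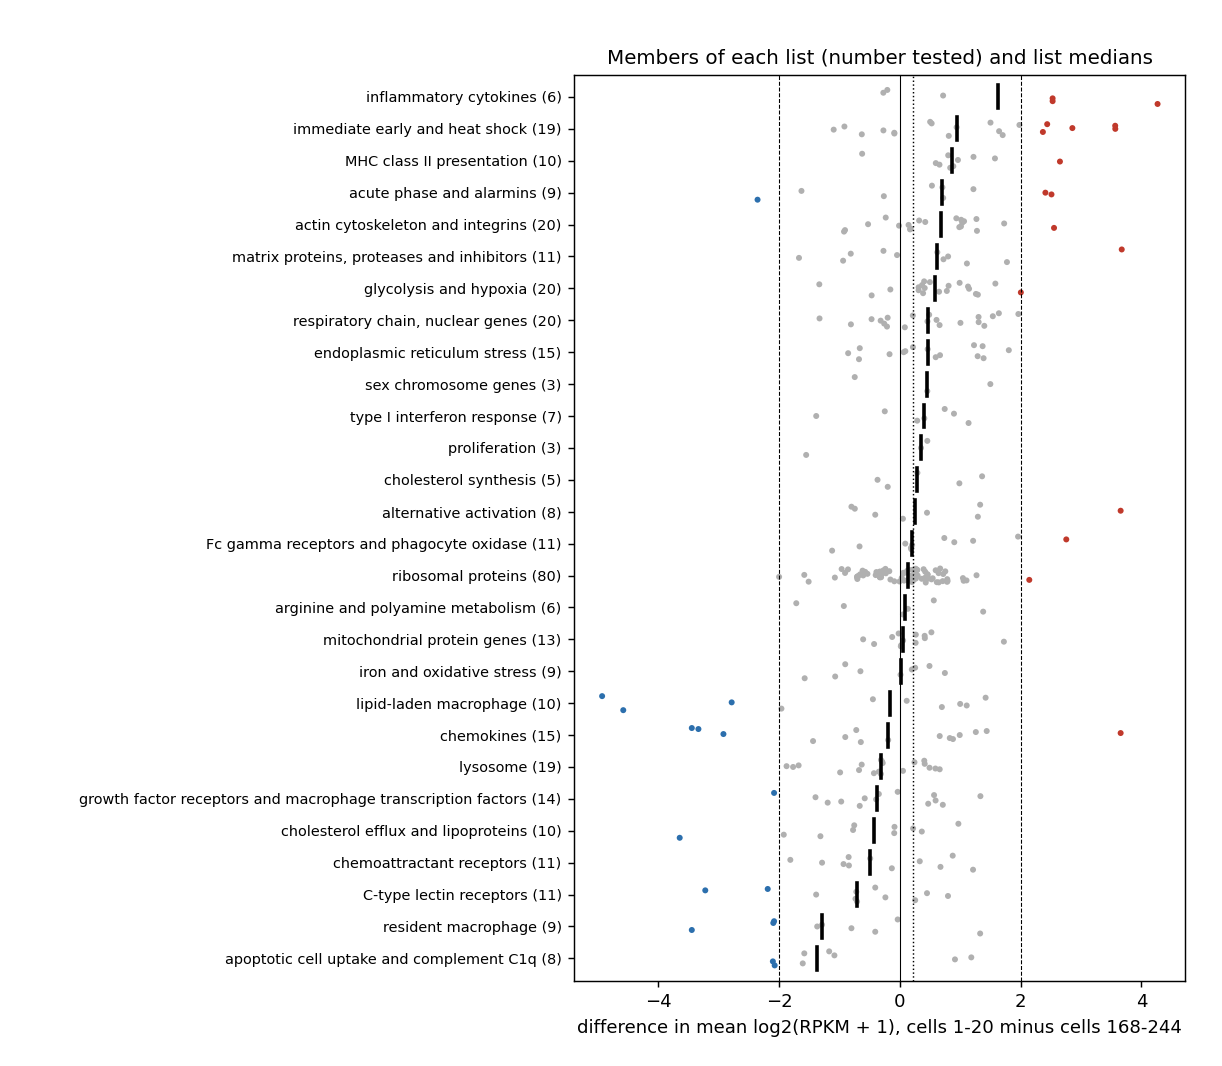
Difference in mean log2(RPKM + 1), cells 1-20 minus cells 168-244, of the tested members of each list (points, red at 2 or more and blue at -2 or less) and list medians (black bars); dashed lines mark 2 and -2 and the dotted line the median of all genes, 0.21. Medians run from -1.37 for apoptotic cell uptake and C1q to 1.62 for inflammatory cytokines.

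The other reading, the share of cells that listed a gene, gave fewer genes. The share was higher by 40 percentage points or more in cells 1-20 for 23 genes (0.495% of those tested) and in cells 168-244 for 10 genes (0.215%). Of these, 13 and 8 were also past 2 in mean level. The highest gaps were those of Nr4a2, Nr4a1 and Atp6v0c on one side and of Cd63, Arid1b and Ms4a7, at 55.0, 53.0 and 51.0 points, on the other. Ceacam1, an adhesion receptor, was listed in 14 of 20 and 18 of 75 cells, and Rgcc, a regulator of the cell cycle, in 16 of 20 and 22 of 75. Dusp6, a phosphatase of ERK kinases, was listed in 5 of 20 and 53 of 75 cells.

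The leading genes were carried by most cells of 1-20, not by a few. Of the 15 genes highest in cells 1-20, a cell of that stretch listed a median of 13 (7 to 14), and of the 15 lowest it listed 7 (2 to 13). In cells 168-244 the medians were 7 (3 to 13) and 12 (4 to 15). More high than low genes were listed in 17 of 20 cells 1-20 and in 4 of 75 cells 168-244. These genes were picked on the same cells, so the counts describe how evenly they were spread and are no check of the difference. All of Il1b, Plaur, Ier3 and Nr4a1 were listed together in 13 of 20 cells 1-20 (65.0%, 40.8 to 84.6%) and 5 of 75 cells 168-244 (6.67%, 2.20 to 14.9%). All of Ms4a7, Cd63, Marcks and Spp1 were listed together in 3 of 20 (15.0%, 3.21 to 37.9%) and 49 of 75 cells (65.3%, 53.5 to 76.0%).

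The 3 stretches not used to pick the genes give a reference, without a test. More high than low genes were listed in 3 of 18 cells 93-111, 3 of 69 cells 21-92 and 2 of 56 cells 112-167. Genes picked for a difference between cells 1-20 and 168-244 are not an even choice, and of all 4649 genes 65.5% had a mean in cells 93-111 nearer to cells 168-244 than to cells 1-20, against 65.0% in cells 21-92 and 66.1% in cells 112-167. For 14 of the 15 highest genes the mean of regression cells 93-111 lay nearer to cells 168-244 than to cells 1-20, and for baseline cells 21-92 and 112-167 this held for 12 and 14. For the 15 lowest genes it held for 13, 10 and 12. Of the 100 genes past 2 higher in cells 1-20, 92 were nearer to cells 168-244 in cells 93-111, and of the 55 in the other direction 47 were. Exceptions included Rps27rt, at 9.49 in cells 93-111 and 9.29 in cells 1-20, Spp1, at 4.81 and 3.99, and Rpl34-ps1, at 2.91 and 4.01. Which of animal, surgery, capture or sequencing run sets cells 1-20 apart cannot be told apart here.

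**Figure D5:**
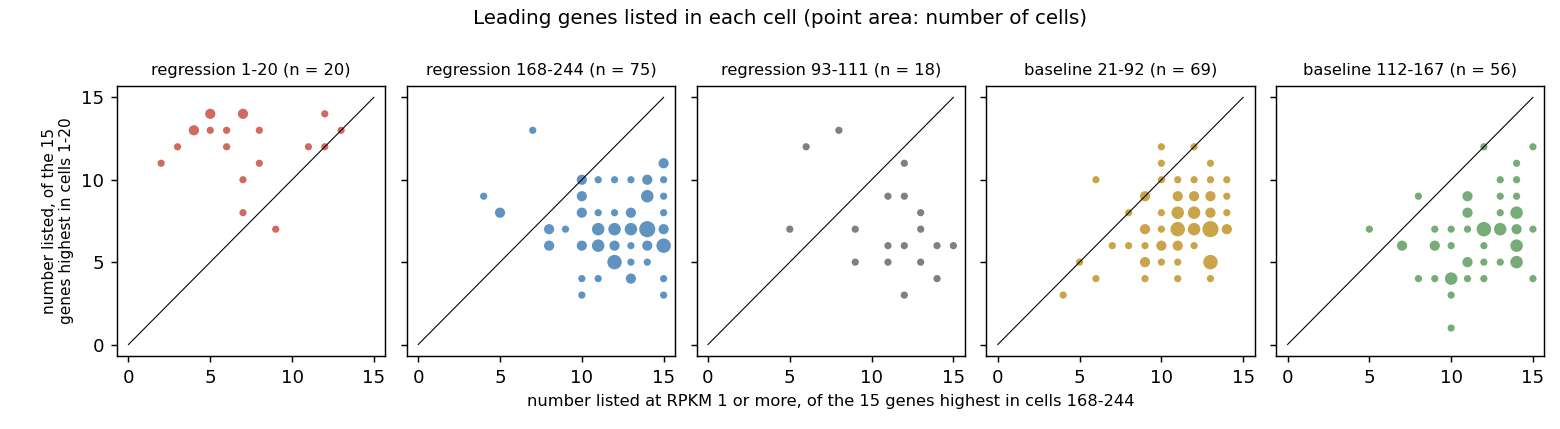
Number of the 15 genes highest in cells 1-20 (y axis) and of the 15 highest in cells 168-244 (x axis) listed at RPKM 1 or more in each cell of the 5 stretches; point area gives the number of cells and the line marks equal numbers. Cells above the line number 17 of 20 in cells 1-20, 4 of 75 in cells 168-244, 3 of 18 in cells 93-111, 3 of 69 in cells 21-92 and 2 of 56 in cells 112-167.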

How the data were processed

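The authors deposited 1 table of RPKM values for 24475 genes and 244 single-cell libraries, with gene identifiers and symbols in a second file. Per the submitters' processing notes, CASAVA 1.8.2, FastQC and the mm10 build were used; the sources used here do not name the aligner, the annotation or the program behind the RPKM values. Columns were matched to samples by the number in the title.

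RPKM is not a count, so no count model was used. Libraries of 1 stretch whose log2 values correlated above 0.9 were averaged, which concerned 3 baseline pairs and no compared cell. Values were compared as means of log2(RPKM + 1), a scale that understates the difference of low genes. The kit adds no molecular identifiers, and each value therefore includes amplification noise. Doublets were not called. Shares have exact (Clopper-Pearson) 95% intervals; for 0 cells the limit is 3 cells of the total. Reads per library were estimated from the regular step that 1 read makes in RPKM times transcript length, over 5727 genes with 1 transcript. The largest step among the near-best was taken, and estimates are given where separate gene sets matched within 10%. In those libraries a median of 50.0% (1-20) and 55.4% (168-244) of low values lay within 0.1 read of a whole number, against 20% by chance.

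Genes were chosen by a rule: the 15 highest and 15 lowest differences with the same sign in the ratio of mean RPKM (predicted genes, clone names, receptor segments and Rn45s left out), the 2 most different members per list, and 17 genes by name. Not all of the list members and genes by name are described above. Any other gene is an example picked with its values known. The cells compared, the 28 gene lists and 16 marker lists were chosen with earlier results of these data known. Promoter sequences and positions are from RefSeq (GRCm38.p6). The script was tested on simulated data, drawn gene by gene from the pooled cells and so without differences in depth between cells. The sign was right for 191 of 200 changed genes, and 27 of 4333 unchanged genes were past 2. True changes of 2 and -2 had median estimates of 1.31 and -1.15, smaller than the true size. Python 3.11.15, numpy 2.4.6, pandas 2.3.3, scipy 1.17.1 and matplotlib 3.10.9 were used. The alternatives tried were other pseudocounts, filters, scalings and summaries, and other choices of cells.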

Additional observations from a re-analysis of the deposited data

How the results depend on the processing

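Under 14 other settings, 11 of them planned and 3 chosen after seeing the data (matched cells, cells limited by gene number, and cells 1-20 without the 3 lowest in Apoe), the 30 leading genes kept their sign, which for the ratio of mean RPKM the choice of genes required. All 30 were past 2 in each setting except a pseudocount of 10, with 21, and log2 ratios of mean RPKM, with 14. The 30 genes were picked on the same cells, so these counts are no check of their differences. The counts of genes past 2, from 100 higher in cells 1-20 and 55 higher in cells 168-244, moved over 1.5 times as follows. They were 363 and 184 with a pseudocount of 0.1 and 20 and 11 with 10, since the pseudocount sets the weight of cells at 0. They were 195 and 323 as log2 ratios of mean RPKM. The trimmed mean gave 162 in the first direction. Limiting cells 168-244 to the 44 that listed at least as many genes as the lower quartile of cells 1-20 (median 3052 genes, above that of cells 1-20) gave 49 and 141 and a median of -0.20 over all genes. There the inflammatory cytokine median was -0.0052 in place of 1.62; the cause was not tested. Of 390 list medians under other settings, 39 changed sign. As log2 ratios of mean RPKM, the Ms4a, S100a and Nr4a medians were -1.64, 0.70 and 2.04. The 20S proteasome median was 0.04 with cells limited. The resident macrophage median ran from -1.88 to -0.44 and that of apoptotic cell uptake from -1.91 to -0.63. Requiring 2 markers, macrophage markers reached 100% of cells 1-20, classical monocyte markers 61.3% of cells 168-244, and nonclassical markers 35.0% of cells 1-20 and 29.3% of cells 168-244. With 2 markers, neutrophil markers were in 30.0% and 40.0%, and platelet markers in 5.00% and 13.3%. At RPKM of 10, classical markers were in 21.3% of cells 168-244 and nonclassical markers in 0% of cells 1-20. No paired analysis was possible because the labels give no replicate that the stretches share. With 20 cells, shares in cells 1-20 carry wide intervals, and genes under the filter were not compared.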
